A study of Mus musculus with 16 samples.

Results

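Collagen genes were taken as every symbol made of Col, a type number, the letter a and a chain number that stands in both deposited count tables, which gave 44 of 24091 genes. Messenger RNA had been sequenced from 16 mouse libraries. Of these, 10 came from islets picked by hand at 60 weeks of age, all from males, with 5 knockout (KO) animals, Pdx1:Cre;Tff2fl/fl, and 5 control animals, Tff2fl/fl without Cre. The other 6 came from the entire fetal pancreas at embryonic day (E) 16.5, with 3 KO embryos and 3 controls of the same genotypes. All animals therefore carried both floxed alleles of Tff2, the gene of the secreted peptide trefoil factor 2, and the KO animals also carried a Cre recombinase under the promoter of Pdx1, a gene of the early pancreatic epithelium. Fibroblasts, vessels and nerves do not derive from that epithelium, and whole embryonic pancreata contain them. Islets had been freed from the surrounding tissue and picked before RNA extraction.

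Collagens are secreted proteins whose chains wind into triple helices. Fibrillar types I, II, III, V and XI form the cables of connective tissue, bone and cartilage, and fibril-associated types coat those cables. Type IV is the network of basement membranes, the thin sheets under epithelia and around vessels, and its chains form set combinations of which the product of Col4a1 and Col4a2 is the common one. Beta cells of the mouse rest on the basement membrane that islet capillaries make, whereas mesenchymal cells make most fibrillar collagen of the fetal pancreas.

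Total counts ranged from 22595400 to 32385042 in islet libraries and from 14866194 to 22699934 in pancreata. Tff2 had 2.70, 9.96 and 1.605 CPM (counts per 1e6 reads, scaled by the TMM method within a tissue) in the KO pancreata with animal numbers 01, 18 and 19, against 38.7, 22.7 and 35.1 CPM in control pancreata 02, 08 and 13. It had 0, 0.463, 0.478, 0.358 and 0.0862 CPM in KO islets, against 1.11, 2.93, 0.977, 4.70 and 2.46 CPM in control islets, with no overlap in either tissue. The edgeR adjusted p was 0.0297 in pancreata and 0.0884 in islets. The labelled tissues bore their defining genes. The 6 islet hormone genes summed to 141921 to 178179 CPM in islets and to 742 to 2796 CPM in pancreata. The 10 acinar enzyme genes summed to 122 to 1882 CPM in islets and to 53897 to 132310 CPM in pancreata. KO pancreas 18 had 1.56 CPM of Xist, against 1088 to 1809 CPM in the other 5 pancreata, and 134 CPM of the Y-linked Ddx3y, so it came from a male embryo. The liver genes Alb, Afp, Apoa1, Ttr and Fgb summed to 1529 CPM in KO pancreas 01, against 302 to 514 CPM in the other 5.

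The collagens differed most by tissue. Together they made up 0.0975 ± 0.00511% of counts in control islets (SD, n = 5), against 2.25 ± 0.146% in control pancreata (SD, n = 3). Islets held mainly chains of the basement membrane type IV and of beaded-filament types, and pancreata held mainly the types I and III of connective tissue fibrils. Tissue, age, sex and isolation differed together between these groups and cannot be told apart. In bulk samples, fewer cells of a type and less RNA per cell cannot be told apart either, here or in any later comparison. Levels per gene length are given as RPKM, counts per kilobase of deposited gene length and per 1e6 reads, scaled over all 16 libraries.

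**Figure D1:**
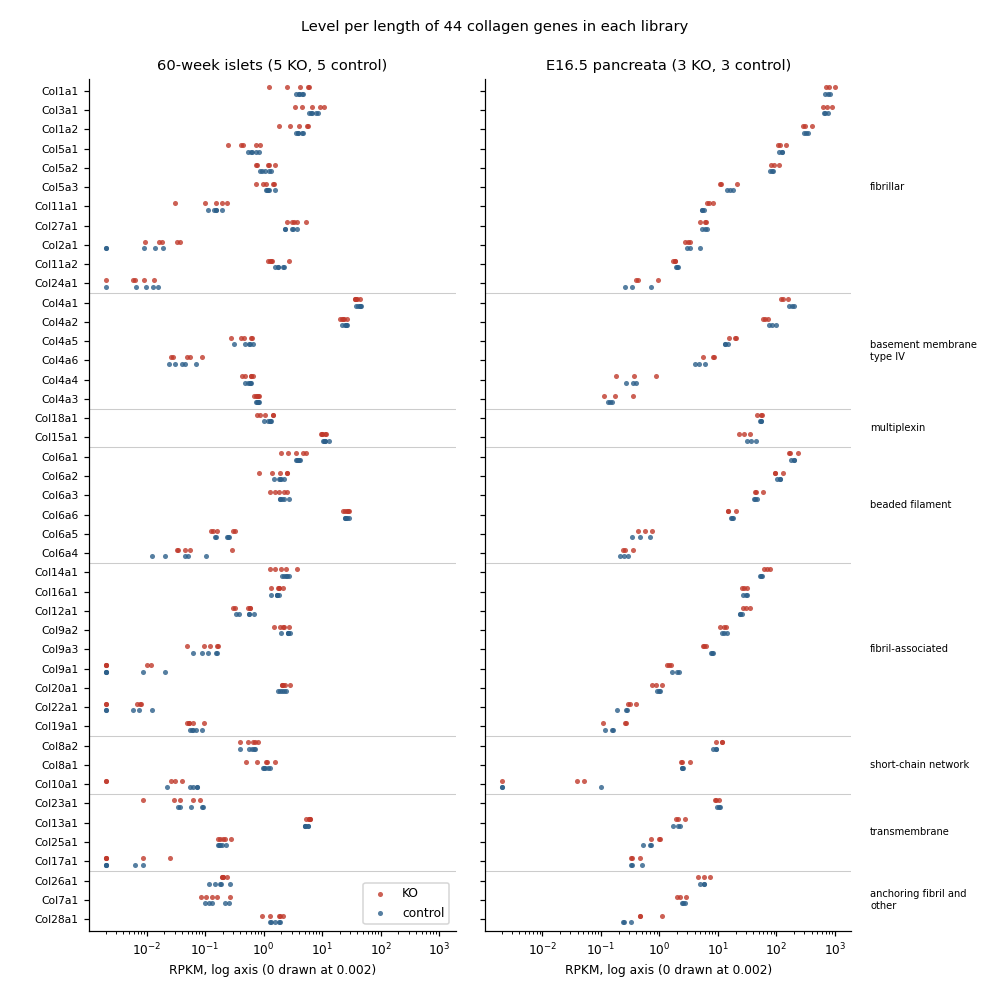
Level of each of the 44 collagen genes in every library, as RPKM on a log axis, with islets on the left, pancreata on the right and genes grouped by class. Points are libraries, KO in red and control in blue. Col1a1 and Col3a1 lead in pancreata, and Col4a1, Col6a6 and Col4a2 lead in islets. Among controls Col13a1, Col4a3, Col28a1, Col20a1 and Col6a6 lie higher in islets. For Col28a1 the highest pancreas, KO 01 at 1.11 RPKM, lies above the lowest islet library, a KO at 0.936 RPKM.

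In islets the order of levels over both genotypes was led by Col4a1 at 41.0 ± 3.59 RPKM (SD, n = 10), then Col6a6 at 26.0 ± 1.87 RPKM and Col4a2 at 23.9 ± 2.17 RPKM. Col6a6 and Col4a2 had overlapping ranges, 22.8 to 28.6 and 20.4 to 26.7 RPKM. Col15a1, a basement membrane proteoglycan of vessels, came next at 10.9 ± 1.00 RPKM. Col3a1 followed at 6.99 ± 2.16 RPKM and Col13a1, a transmembrane collagen, at 5.63 ± 0.434 RPKM, and these ranges also overlapped. In pancreata Col1a1 led at 787 ± 113 RPKM (SD, n = 6), and Col3a1, the type III chain, had 721 ± 99.4 RPKM with an overlapping range. Col1a2, which pairs with Col1a1 in type I collagen, had 325 ± 44.1 RPKM over a deposited length of 10.037 kb. Col6a1 had 190 ± 25.7 RPKM, Col4a1 159 ± 31.5 RPKM and Col5a1, a chain that sets the width of type I fibrils, 122 ± 14.0 RPKM.

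By class, type IV chains held 43.97 ± 1.81% of the summed collagen level per length in control islets, against 9.91 ± 0.740% in control pancreata (SD, n = 5 and 3). Fibrillar chains held 14.7 ± 1.09% in control islets, against 68.6 ± 1.26% in control pancreata. These ranges lay far apart, 42.04 to 46.4% against 9.39 to 10.8% for type IV and 13.4 to 16.1% against 67.4 to 69.9% for fibrillar chains. The type VI chains, which form beaded filaments next to cells, held 21.6 ± 0.996% in control islets, against 12.6 ± 0.324% in control pancreata.

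The test of control islets over control pancreata used edgeR's quasi-likelihood test in a fit over all 16 libraries, with Benjamini-Hochberg adjustment over 15823 genes and a threshold of 0.05. It called 41 of the 43 collagens tested (95.3%), against 85.9% of all genes tested. In islets 5 were higher and 36 lower, with a median log2 fold change of -4.32 over the members and -0.0124 over all genes. Of all genes 42.4% were higher and 43.6% lower, and 86.4% had an unadjusted p under 0.05. Col1a1 had 3.98, 3.59, 4.04, 4.50 and 4.72 RPKM in control islets 052, 826, 829, 857 and 858, against 748, 675 and 815 RPKM in control pancreata 02, 08 and 13. The log2 fold change was -7.48 (SE 0.378; adjusted p = 5.57e-12), a level 179-fold lower in islets. Col3a1 was 98.0-fold lower, Col1a2 77.4-fold lower and Col5a1 180.0-fold lower. In islets Col1a1 and Col1a2 stood near 1 to 1 per length, 1.02 ± 0.0178, against 2.36 ± 0.0488 in control pancreata.

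The type IV chains Col4a1 and Col4a2 differed less than these fibrillar chains. Col4a1 had 44.3, 38.5, 45.2, 41.7 and 44.7 RPKM in control islets, against 202, 163 and 182 RPKM in control pancreata, and was 4.25-fold lower in islets (log2 fold change -2.09, SE 0.0942, adjusted p = 1.22e-12). Col4a2 was 3.48-fold lower and Col15a1 3.32-fold lower, whereas Col4a5 was 26.6-fold lower and Col4a6 113-fold lower. Col4a5 and Col4a6 encode chains of a basement membrane network found around smooth muscle and some epithelia. Col18a1, the multiplexin whose end piece is endostatin, was 44.5-fold lower. The endothelial marker list summed to 1010 to 1065 CPM in control islets and 980 to 1264 CPM in control pancreata, each scaled within its tissue, and 4 of its 12 genes were higher and 8 lower in islets. All 12 fibroblast and mesenchyme markers were lower in islets, with a median log2 fold change of -5.47 and a sum of 56.8 to 78.3 CPM in control islets against 2041 to 2383 CPM in control pancreata. The part of these cell types in the collagen differences was not tested.

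The 5 collagens higher in islets came from 5 classes. Col4a3 had 0.767, 0.820, 0.813, 0.804 and 0.742 RPKM in control islets, against 0.156, 0.142 and 0.130 RPKM in control pancreata, and was 5.50-fold higher (log2 fold change 2.46, SE 0.240, adjusted p = 4.33e-08). Col28a1, a collagen known from peripheral glia, was 5.82-fold higher (log2 fold change 2.54, SE 0.337). Col13a1 was 2.66-fold higher, Col20a1 2.15-fold higher and Col6a6 1.48-fold higher. Within type VI, Col6a6 exceeded Col6a3 12.2 ± 1.93 times per length in control islets, against 0.407 ± 0.0122 times in control pancreata. Col4a4, the partner of Col4a3, had a log2 fold change of 0.71 that was not called (adjusted p = 0.0564). Col11a2 was also not called, with a log2 fold change of -0.0768. Several collagens lay near the counting floor in islets: over all 10 islet libraries Col9a1 had 5 counts, Col17a1 6, Col22a1 7, Col24a1 14, Col2a1 20 and Col10a1 29, so their levels could not be ordered at this depth.

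**Figure D2:**
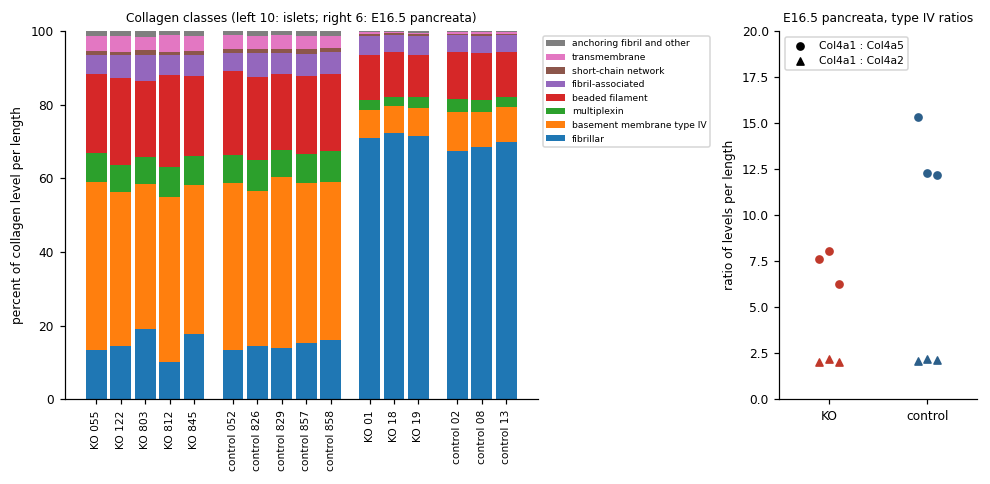
Left, percent of the summed collagen level per length held by each class in every library, KO before control within islets and within pancreata. Right, the ratio per length of Col4a1 to Col4a5 (circles) and of Col4a1 to Col4a2 (triangles) in the pancreata. Type IV and type VI take most of the islet bars and fibrillar chains most of the pancreas bars. The Col4a1 to Col4a5 ratio lies at 6.25 to 8.04 in KO and 12.2 to 15.4 in control pancreata.

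The comparison at the centre of the design is KO against control. Loss of Tff2 and presence of the Cre transgene differed together between these groups and cannot be told apart. In E16.5 pancreata the same test within the tissue called 2 of 43 collagens (4.65%), against 6.43% of the 14914 genes tested, of which 3.75% rose and 2.68% fell. Col9a3 fell and Col11a1 rose, and both encode collagens best known from cartilage. The main fibrillar chains did not pass, and neither did any type IV chain. Col4a1 and Col4a2 lay lower and Col4a5 and Col4a6 higher in KO, with edgeR adjusted p-values of 0.0518 to 0.0882. The groups did not overlap for 12 members, 7 higher and 5 lower in KO. Among all genes tested the groups did not overlap for 15% with KO higher and 16.1% with KO lower, 31.1% in all. The median log2 fold change was 0.12 over the members and -0.0012 over all genes. An unadjusted p under 0.05 was reached by 13 members, 8 higher and 5 lower in KO, which is 13 of 43 against 25.4% of all genes. The count of 2 was small and unstable. DESeq2, with its own size factors, called 9 of 43 collagens, 6 higher and 3 lower, against 9.71% of all genes, and scaling by library totals gave 5. With library totals 779 of all genes rose and 179 fell, against 560 and 399 with TMM.

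Col9a3 encodes a chain of type IX collagen, which coats type II fibrils in cartilage (chromosome 2, 180598222 to 180622185, plus strand, mm10). It had 21.9, 23.8 and 21.3 CPM in KO pancreata 01, 18 and 19, against 31.6, 30.1 and 29.5 CPM in controls 02, 08 and 13. Every KO pancreas lay below every control, and the spread within each group was small. It fell 1.36-fold (log2 fold change -0.447, SE 0.0755) with an edgeR adjusted p of 0.0239, but with libraries scaled to 16 pan-epithelial markers the value was 0.0017 and was not called. That scaling placed the median of all genes at 0.445, because 10 of the 16 markers fell in KO under TMM scaling, against 2.68% of all genes. The Col9a3 value lay below that median. Its end shares 229 bases by position with Tcfl5 on the other strand. Tcfl5 had 1.80, 1.63 and 1.19 CPM in KO pancreata, against 1.46, 1.23 and 1.32 CPM in controls (log2 fold change 0.199, adjusted p = 0.651). Of the other type IX chains, Col9a1 had a log2 fold change of -0.405 (adjusted p = 0.121), with 6.14, 7.18 and 6.66 CPM in KO pancreata against 7.57, 9.69 and 9.20 CPM in controls. Col9a2 had -0.0472 (adjusted p = 0.820).

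Col11a1 encodes a chain of type XI collagen, found within type II fibrils and in fetal connective tissue (chromosome 3, 114030540 to 114220756, plus strand). It had 63.0, 57.0 and 71.8 CPM in KO pancreata, against 46.2, 50.0 and 46.9 CPM in controls, again with no overlap. It rose 1.34-fold (log2 fold change 0.424, SE 0.0887) with an edgeR adjusted p of 0.0362, and its log2 fold change was 0.870 under pan-epithelial scaling. Col11a2, a second chain of the same type, had a log2 fold change of -0.140 (adjusted p = 0.386). The type II chain Col2a1 had 17.6, 15.7 and 19.0 CPM in KO pancreata, against 18.8, 27.7 and 16.7 CPM in controls, and the groups overlapped. Of the cartilage and bone markers none of the 5 tested was called. They summed to 23.4 to 35.2 CPM in KO and 23.4 to 33.5 CPM in control pancreata, and Bglap was at 0 in all 6. Both calls rested on all 3 controls. With control 02, 08 or 13 left out in turn, edgeR gave adjusted p-values of 0.143, 0.108 and 0.0724 for Col9a3 and of 0.171, 0.115 and 0.100 for Col11a1. These fits called 0, 4 and 0 of all genes. Without KO 19, Col11a1 had an adjusted p of 0.0514. DESeq2 called both, with adjusted p = 0.00264 for Col9a3 and 0.00235 for Col11a1.

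**Figure D3:**
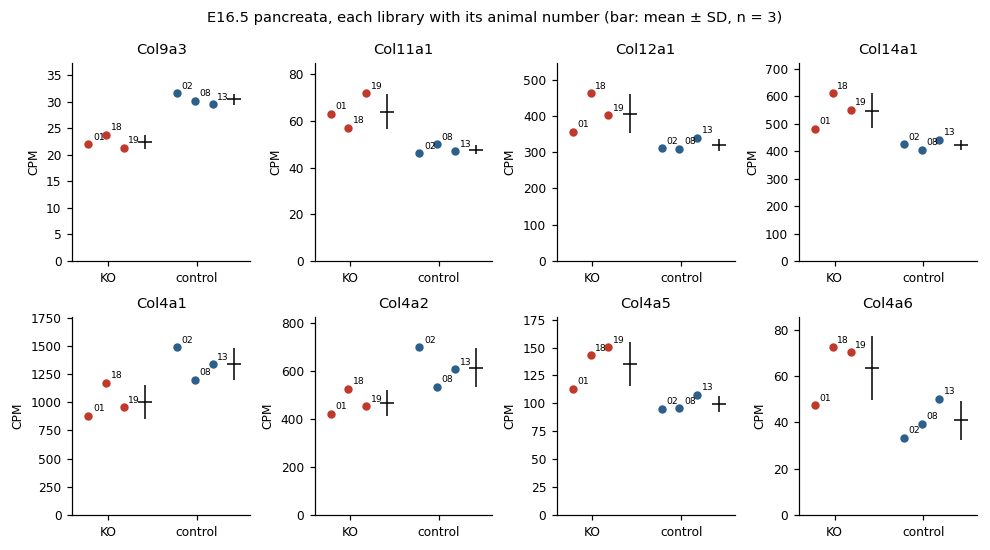
CPM of 8 collagens in each E16.5 pancreas, KO left of control, with animal numbers beside the points and the mean ± SD (n = 3) to their right. KO values lie below all controls for Col9a3, Col4a1 and Col4a2 and above all controls for Col11a1, Col12a1, Col14a1 and Col4a5, while Col4a6 overlaps.

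The 6 type IV genes lie in 3 head-to-head pairs, each pair reading outward from a shared start region. The stretches that join them are shown because the members of a pair had fold changes of the same sign for KO over control at E16.5. They did not keep like sizes between tissues, where Col4a3 and Col4a4 had log2 fold changes of 2.46 and 0.71 and Col4a5 and Col4a6 of -4.74 and -6.82. Col4a1 and Col4a2 overlap by 22 bases at their starts (chr8:11312805-11312826, plus strand). The starts of Col4a3 and Col4a4 lie 71 bases apart (chr1:82586850-82586920, plus strand). Those of Col4a5 and Col4a6 lie 1342 bases apart, and the 250 bases before each start are given, chrX:141475169-141475418 on the plus strand and chrX:141474077-141474326 on the minus strand. Sequences are from RefSeq on build GRCm38.p6, and capitals mark matches in either orientation to any of 3 motifs. These are CCAAT, the GC box spelled GGGCGG, and the TATA box spelled TATAAA.

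Col4a1 and Col4a2: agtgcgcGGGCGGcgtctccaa

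Col4a3 and Col4a4: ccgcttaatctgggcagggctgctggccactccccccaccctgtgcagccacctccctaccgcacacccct

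Col4a5: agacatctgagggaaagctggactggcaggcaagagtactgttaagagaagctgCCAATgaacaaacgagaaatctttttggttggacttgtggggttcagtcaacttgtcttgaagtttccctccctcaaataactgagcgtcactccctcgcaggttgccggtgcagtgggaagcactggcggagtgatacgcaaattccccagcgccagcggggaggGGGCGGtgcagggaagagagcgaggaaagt

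Col4a6: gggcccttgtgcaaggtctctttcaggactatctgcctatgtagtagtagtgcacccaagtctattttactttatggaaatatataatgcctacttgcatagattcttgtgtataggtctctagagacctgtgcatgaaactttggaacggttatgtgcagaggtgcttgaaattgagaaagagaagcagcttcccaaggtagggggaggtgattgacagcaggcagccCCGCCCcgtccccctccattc

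A GC box stands in the stretch shared by Col4a1 and Col4a2 and before both Col4a5 and Col4a6, a CCAAT motif before Col4a5 only, and none of the 3 motifs between Col4a3 and Col4a4. None of the 4 stretches holds TATAAA. Of 32851 mouse promoters, the last 250 bases before the start held CCAAT in 33.8%, GGGCGG in 32.7% and TATAAA in 12.4%. Over the last 71 bases the shares were 13.3%, 20.7% and 4.41%, and over the last 22 bases 2.94%, 7.19% and 0.603%. The 22 bases of Col4a1 and Col4a2 lie within both genes, after their starts, so the share before starts is not for a like region. The matches describe these letters only.

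Col4a1 had 882, 1175 and 957 CPM in KO pancreata 01, 18 and 19, against 1487, 1199 and 1338 CPM in controls 02, 08 and 13. The highest KO value lay just under the lowest control. Its log2 fold change of -0.418 (SE 0.127) was not called by edgeR (adjusted p = 0.0882) and was called by DESeq2 (adjusted p = 0.00726). Without KO 18, edgeR called it (-0.546, adjusted p = 0.0415). With any other library left out edgeR did not call it (adjusted p up to 0.296). Col4a2 had 423, 526 and 453 CPM in KO pancreata, against 700, 536 and 609 CPM in controls. Its edgeR adjusted p was 0.0851 (log2 fold change -0.395, SE 0.119, DESeq2 adjusted p = 0.00990). The pair kept a near-constant ratio per length, 2.08 ± 0.0769 in KO and 2.13 ± 0.0562 in controls (SD, n = 3 each). Under pan-epithelial scaling the values were 0.0312 for Col4a1 and 0.0520 for Col4a2, against the median of 0.445 for all genes.

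Col4a5 had 113, 143 and 150 CPM in KO pancreata, against 94.9, 95.5 and 108 CPM in controls, with every KO value above every control. Its log2 fold change of 0.447 (SE 0.109) lay nearest to the threshold among members not called (edgeR adjusted p = 0.0518), and it was called by DESeq2 (adjusted p = 0.00299), with library totals (adjusted p = 0.0252) and with no low-count filter (adjusted p = 0.0424). Col4a6 had 47.4, 72.4 and 70.3 CPM in KO pancreata, against 33.3, 39.5 and 50.1 CPM in controls, and the lowest KO value lay among the controls. The log2 fold change was 0.630 (SE 0.190; edgeR adjusted p = 0.0864, DESeq2 adjusted p = 0.00883). A wide microRNA entry of the annotation, Mir3472, overlaps both genes by position. Both are on the X chromosome, and KO 18 was the male embryo. Without it the log2 fold changes were 0.405 for Col4a5 and 0.523 for Col4a6, and without KO 01 they were 0.570 and 0.811 and both were called (adjusted p = 0.00466 and 0.0140). With any other library left out neither was called (edgeR adjusted p up to 0.207 and 0.281).

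The third pair, Col4a3 and Col4a4, was near the bottom of the range. Col4a3 had 1.27, 1.96 and 3.98 CPM in KO pancreata, against 1.73, 1.57 and 1.44 CPM in controls. Col4a4 had 1.59, 3.18 and 7.73 CPM in KO pancreata, against 3.06, 2.35 and 3.39 CPM in controls. KO 19 was the highest library for both and the groups overlapped, and the log2 fold changes of 0.596 and 0.500 were not called (adjusted p = 0.389 and 0.566). Without KO 19 the values were 0.0167 for Col4a3 and -0.317 for Col4a4.

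Since scaling cancels within a library, the ratio of Col4a1 to Col4a5 per length does not depend on it. It was 7.65, 8.04 and 6.25 in KO pancreata 01, 18 and 19, against 15.4, 12.3 and 12.2 in controls 02, 08 and 13. This ratio was chosen after its values were seen and is a description with no test. The type IV share of the collagen level was 7.54 ± 0.245% in KO and 9.91 ± 0.740% in controls, and the fibrillar share 71.6 ± 0.7104% in KO and 68.6 ± 1.26% in controls (SD, n = 3 each). Col15a1, the vessel-associated multiplexin, had 136, 208 and 164 CPM in KO pancreata, against 259, 185 and 221 CPM in controls, with overlap and a log2 fold change of -0.390 (adjusted p = 0.190), or 0.0597 under pan-epithelial scaling. Col18a1 had a log2 fold change of -0.0225 (adjusted p = 0.887).

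Endothelial markers lay lower in KO, the direction of Col4a1 and Col4a2, which edgeR did not call. Of 12 such genes, Flt1 and Eng fell (log2 fold changes -0.525 and -0.577, adjusted p = 0.0265 and 0.0297), against 2.68% of all genes. The other 10 were not called. No marker of the 12 lay above 0, and the median was -0.414. Their summed level was 760, 989 and 856 CPM in KO pancreata 01, 18 and 19, against 1264, 980 and 1187 CPM in controls 02, 08 and 13, and none was at 0. The groups overlapped in this sum, by KO 18 and control 08. The lowest sums and the lowest Col4a1 levels were in KO 01 and 19, and the highest of both were in controls 02 and 13. Other lists lay lower in KO too. Acinar enzyme genes summed to 53897 to 103975 CPM in KO and 110755 to 132310 CPM in control pancreata, with 0 of 10 called. Their lowest sums were also in KO 01 and 19 and their highest in controls 02 and 13, with no overlap of the groups. The 16 pan-epithelial markers summed to 2354 to 2447 CPM in KO and 2931 to 3391 CPM in controls. Of these 10 fell, against 2.68% of all genes. Of 10 smooth muscle and pericyte markers, the contractile genes Acta2, Myh11, Cnn1 and Actg2 rose (log2 fold changes 0.593 to 1.75), against 3.75% of all genes. The other 6 were not called. Over the list 7 lay above 0 and 3 below, with a median of 0.401. Those below 0 were the pericyte genes Pdgfrb at -0.189, Rgs5 at -0.157 and Cspg4 at -0.0738. The pericyte genes Kcnj8 and Abcc9 and the contractile gene Tagln were not called and lay above 0. None of the 10 markers was at 0 CPM, and their sum was 720 to 881 CPM in KO and 627 to 711 CPM in control pancreata. Of 5 mesothelial genes tested Upk1b rose (20%, against 3.75% of all genes), with sums of 288 to 446 CPM in KO and 212 to 310 CPM in control pancreata. Of 8 macrophage genes Lyz2 rose (12.5%, against 3.75% of all genes), with sums of 419 to 749 CPM in KO and 435 to 513 CPM in control pancreata. None of 5 erythroid genes tested was called, with sums of 1423 to 2842 CPM in KO and 1447 to 1829 CPM in control pancreata. The part of vessel cells and of these other cell types in the type IV values was not tested.

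The main fibrillar chains stayed within their spread. Col1a1 had 4674, 6579 and 5247 CPM in KO pancreata, against 4917, 4425 and 5360 CPM in controls (log2 fold change 0.166, SE 0.143, adjusted p = 0.501). Col3a1 had 5648, 8078 and 6498 CPM in KO pancreata, against 6019, 5722 and 6630 CPM in controls (log2 fold change 0.139, SE 0.143, adjusted p = 0.578). Col1a2 had an adjusted p of 0.714 (log2 fold change 0.0935, SE 0.142). In all 3 genes KO 18 was the highest of the 6 pancreata and the other KO values lay among or near the controls. The fibroblast and mesenchyme list followed the same library, with a sum of 2063, 2964 and 2033 CPM in KO pancreata 01, 18 and 19, against 2184, 2041 and 2383 CPM in controls 02, 08 and 13. None of its 12 genes was called or at 0 (median log2 fold change -0.0376), and its part in the fibrillar values was not tested. Collagens together made up 2.50 ± 0.342% of counts in KO and 2.25 ± 0.146% in control pancreata (SD, n = 3 each). Type VI chains gave 0 calls among 6, Col6a1 at -0.00995, Col6a2 at -0.0586, Col6a3 at 0.196 and Col6a6 at -0.0638 on the log2 scale.

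Of the 9 fibril-associated collagens tested, Col9a3 fell and the others were not called. Col14a1, which binds type I fibrils in embryonic connective tissue, had 482, 611 and 550 CPM in KO pancreata, against 425, 404 and 441 CPM in controls. The log2 fold change was 0.372 (SE 0.0945; edgeR adjusted p = 0.0567, DESeq2 adjusted p = 0.00225). Col12a1, its close relative in tendon and fascia, had 356, 463 and 401 CPM in KO pancreata, against 311, 310 and 340 CPM in controls. Its edgeR adjusted p was 0.0782 (log2 fold change 0.344, SE 0.0999, DESeq2 adjusted p = 0.0113). Every KO value was above every control for both genes, by edgeR neither passed, and both passed when library totals were used for scaling (adjusted p = 0.0246 and 0.0339) and without KO 01 (adjusted p = 0.0140 and 0.0206). With any other library left out neither passed (edgeR adjusted p up to 0.207 for Col14a1 and 0.263 for Col12a1). Col16a1, of the same class, had -0.0417 (adjusted p = 0.812).

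Among the remaining members, Col28a1 had the widest change. It had 112, 37 and 42 counts, or 5.93, 2.51 and 2.50 CPM, in KO pancreata 01, 18 and 19, against 37, 23 and 22 counts, or 1.69, 1.29 and 1.27 CPM, in controls. KO 01 stood apart, and all KO values were above all controls. The log2 fold change was 1.37 (SE 0.381, edgeR adjusted p = 0.0713, DESeq2 adjusted p = 0.0211), and 0.817 without KO 01. The 6 sympathetic neuron genes all rose, against 3.75% of all genes. They summed to 705, 334 and 172 CPM in KO pancreata 01, 18 and 19, against 54.8, 50.1 and 49.6 CPM in controls. None of these markers was at 0, and their part in the Col28a1 values was not tested. Col25a1, a transmembrane collagen of neurons, had a log2 fold change of 0.537 (adjusted p = 0.112), with 12.0, 8.40 and 11.2 CPM in KO pancreata against 5.93, 8.23 and 7.77 CPM in controls. Col8a2, a short chain of corneal and vascular sheets, had 0.288 (adjusted p = 0.123). Col10a1, the chain of hypertrophic cartilage, had 0 to 3 counts in KO and 0 to 6 in control pancreata and was not tested. It lies wholly within Nt5dc1 by position.

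In 60-week islets no collagen was called by edgeR among 34 tested, and 1 reached an unadjusted p under 0.05. The background was low too, with 0.155% of 14219 genes called (0.113% rose, 0.0422% fell) and 7.18% at an unadjusted p under 0.05. DESeq2 also called 0, with 2 at an unadjusted p under 0.05 and 0.75% of all genes called. The groups overlapped in every one of the 44 members, against 1.55% of all genes without overlap (0.781% with KO higher, 0.774% with KO lower). The median log2 fold change was -0.0686 over the members and -0.0012 over all genes. The member nearest the threshold was Col13a1, with 24.3, 23.1, 21.0, 24.0 and 23.4 CPM in KO islets 055, 122, 803, 812 and 845, against 22.7, 19.8, 22.4, 19.97 and 20.2 CPM in control islets 052, 826, 829, 857 and 858 (log2 fold change 0.139, SE 0.0594, adjusted p = 0.642). Next was Col4a1, with 275, 223, 236, 223 and 241 CPM in KO islets, against 272, 237, 278, 255 and 274 CPM in controls (log2 fold change -0.134, SE 0.0641, adjusted p = 0.704). Col4a2 had -0.0919 (SE 0.0727, adjusted p = 0.861) and Col15a1 -0.114 (SE 0.0689, adjusted p = 0.796).

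**Figure D4:**
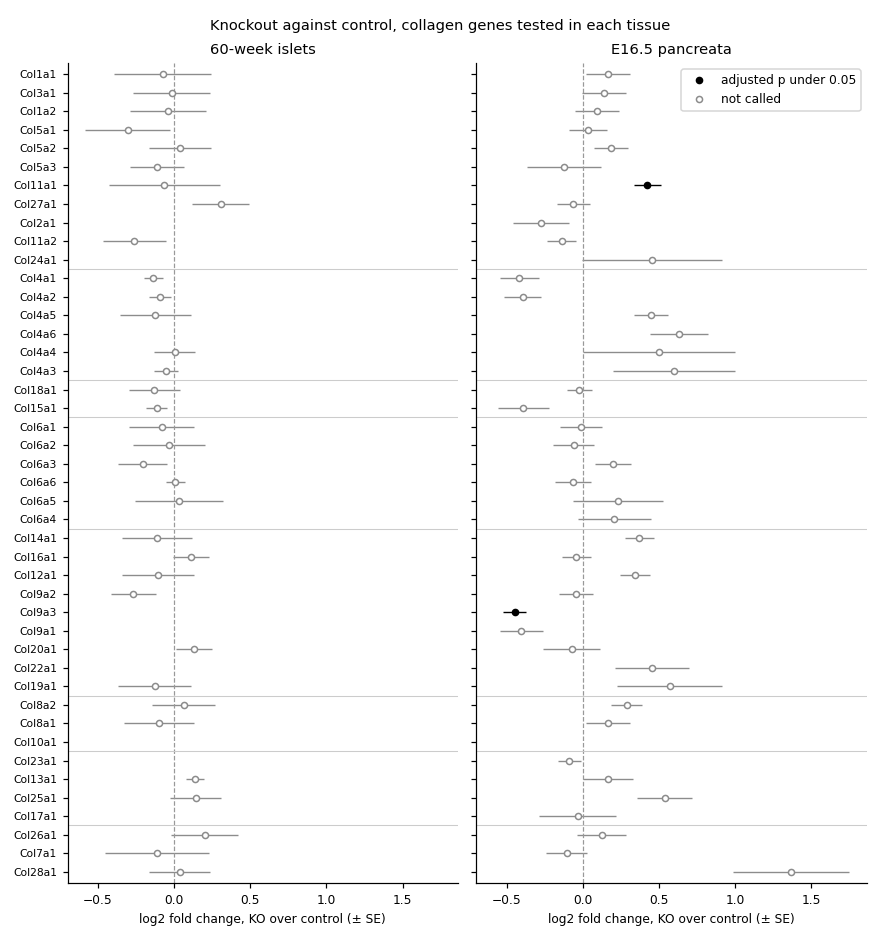
Log2 fold change of KO over control with its SE for each collagen tested, islets on the left and E16.5 pancreata on the right, in the same gene order and grouped by class. Filled points passed an adjusted p of 0.05, which were Col9a3 and Col11a1 at E16.5 and none in islets.

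The fibrillar chains of islets were less precise because KO libraries spread widely. Col1a1 had 22.6, 13.6, 31.7, 6.67 and 33.4 CPM in KO islets 055, 122, 803, 812 and 845, against 21.8, 19.7, 22.2, 24.6 and 25.8 CPM in control islets, with an adjusted p of 0.990 (log2 fold change -0.0746, SE 0.320). Col3a1 had 49.5, 34.0, 80.2, 25.6 and 67.8 CPM in KO islets, against 43.4, 47.5, 50.4, 57.4 and 61.8 CPM in control islets (log2 fold change -0.0157, SE 0.253, adjusted p = 0.997). KO 812 was lowest and KO 803 and 845 were highest for both, and the controls lay between. The sum of 12 fibroblast and mesenchyme markers had the same outer libraries, at 63.0, 45.2, 102, 23.7 and 80.1 CPM in KO islets, against 67.7, 56.8, 61.1, 78.3 and 72.2 CPM in controls. Of these, 9 were tested and 0 called, and their part in the spread was not tested. For Col4a1, KO 812 and 122 were also the lowest KO islets at 223 CPM each, but the highest KO islet was 055 at 275 CPM, whose marker sum lay in the middle. Of the 12 endothelial genes Egfl7 rose in KO islets (log2 fold change 0.281, adjusted p = 0.0498), 8.33% of the list against 0.113% of all genes. The list summed to 1037 to 1232 CPM in KO and 1010 to 1065 CPM in control islets. Collagens made up 0.0952 ± 0.00955% of counts in KO and 0.0975 ± 0.00511% in control islets (SD, n = 5 each).

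**Figure D5:**
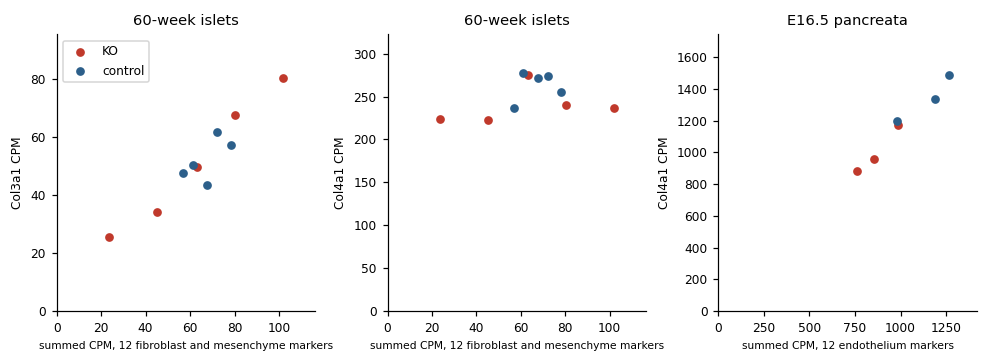
Collagen level against a summed marker level in each library, both in CPM. Islet Col3a1 (left) and islet Col4a1 (middle) are set against 12 fibroblast and mesenchyme markers, and E16.5 Col4a1 (right) against 12 endothelial markers, with KO in red and control in blue. Col3a1 runs between 25.6 CPM at the lowest marker sum and 80.2 CPM at the highest, both KO islets. Islet Col4a1 stays between 223 and 278 CPM, and E16.5 Col4a1 is lowest where the endothelial sum is lowest. The acinar marker sum, not drawn, was lowest in the same pancreas.

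Whether the KO effect differed between the tissues was tested as the effect in islets minus that in pancreata. No collagen of 43 was called by edgeR, against 7.19% of 15823 genes (3.94% higher and 3.25% lower in islets), and 4 reached an unadjusted p under 0.05, against 22.1%. These were Col28a1 at -1.32 (adjusted p = 0.0870), Col2a1 at 1.75 (adjusted p = 0.154), Col4a2 at 0.319 (adjusted p = 0.190) and Col4a1 at 0.299 (adjusted p = 0.206). Without pancreas KO 01 the Col28a1 value was -0.755 (adjusted p = 0.335). Col2a1 rested on 20 counts over all islets. Without pancreas KO 18, Col4a1 was called (0.430, adjusted p = 0.0481), and with any other library left out it was not. Of the 12 endothelial markers 6 were called in the same direction as Col4a1, none in the other, with a median of 0.442. Of the 16 pan-epithelial markers 10 were called in that direction, none in the other, with a median of 0.475. The part of these cell types in the Col4a1 value was not tested. DESeq2 called 1, Col28a1 (adjusted p = 0.0324), against 10% of all genes. The absence of calls in islets beside 2 calls at E16.5 is therefore not shown to be a difference between tissues for any collagen by edgeR.

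The genes that make, cross-link, bind and break down collagen gave no call for KO over control in any of 7 lists in either tissue. With 6.43% of all genes called at E16.5 and 0.155% in islets, lists of this size hold few calls at the background share. At E16.5, 0 of 14 prolyl and lysyl hydroxylation genes passed, among them P4hb, a subunit of prolyl hydroxylase, at a log2 fold change of -0.254 (adjusted p = 0.211). None of 7 folding and export genes passed. The chaperone Serpinh1 was at 0.0005 (adjusted p = 0.998) and Ppib, a prolyl isomerase, at -0.319 (adjusted p = 0.101). Of 12 propeptide processing and cross-linking genes 0 passed, with Lox, the lysyl oxidase, at 0.0826 (adjusted p = 0.751). Of 7 collagen receptors 0 passed, with the integrin chain Itgb1 at 0.0817 (adjusted p = 0.536). Of 8 breakdown genes and inhibitors 0 passed, with the membrane protease Mmp14 at 0.0525 (adjusted p = 0.780). The 3 TGF-beta ligands gave 0, with Tgfb3 at 0.291 (adjusted p = 0.213). Of 12 laminin and other basement membrane partners 0 passed, with Sparc, a collagen-binding glycoprotein, at 0.118 (adjusted p = 0.620). In islets the same lists gave 0 calls among 13, 7, 8, 6, 7, 3 and 11 genes tested, with P4hb at 0.0211, Mia3, which loads collagen for export, at 0.0276, Bmp1, a propeptide protease, at 0.0145, Itgb1 at 0.00378, Timp3, an inhibitor of collagen-degrading proteases, at -0.0474, Tgfb1 at -0.0641 and the proteoglycan Hspg2 at -0.0835 on the log2 scale. For the difference of the KO effect between tissues, 2 genes of the 7 lists were called, against 7.19% of all genes. Sec23a, a coat protein of export vesicles, had -0.348 (adjusted p = 0.0118) and Ddr1, a collagen receptor kinase, 0.260 (adjusted p = 0.0309), with E16.5 log2 fold changes of 0.28 and -0.20 that were not called.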

How the data were processed

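Per the labels' protocols, libraries were prepared from messenger RNA with Kapa HyperPrep reagents. For each tissue the authors deposited whole-number counts per gene, not normalized, beside a gene length in kb that served here for RPKM. Tools named without role or order in the submitters' processing notes are HTSeq 0.11.1, STAR 2.6.0, Trimmomatic and edgeR, with build mm10. The sources used here do not say if strand entered the counting, so reads of genes that overlap on opposite strands cannot be told apart. Some wide microRNA and predicted entries overlap collagens by position, among them Col1a1, Col14a1, Col4a5 and Col4a6.

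Groups came from the labels. The labels give each library its own animal number. Litters are not named, so p-values measure the spread between these samples. No 2 libraries of a group agreed within sampling noise (lowest chi-square per degree of freedom over all pairs 4.90). The main test was edgeR 4.0.16 (R 4.3.3), quasi-likelihood F test, TMM scaling, filterByExpr defaults, Benjamini-Hochberg adjustment over all genes tested and a threshold of 0.05. Within-tissue fits served KO against control, and a fit over all 16 libraries served tissue and interaction. SE is the size of the log2 fold change over the square root of F. The procedure was tested on simulated data. Alternatives were library totals, DESeq2 1.42.0, no low-count filter beyond a total of 1, pan-epithelial scaling and leaving out each replicate. A further alternative kept only calls of the main test with an estimated fold of at least 1.5.

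The members and lists were chosen with earlier results of these data known. Named were members called for KO or interaction, the up to 3 highest per length in each class, the 2 nearest the threshold per tissue, and the type IV pairs. Members called have every E16.5 value given, and some others have only a log2 fold change or a level. Named from pathway lists were genes called for the interaction and, for KO, where none was called, the most abundant. Serpinh1, Ddx3y, Xist, Tcfl5 and members with an unadjusted p under 0.05 were added after values were seen. Col7a1, Col8a1, Col20a1, Col23a1 and Col26a1 met the rule and are shown in the plots. RefSeq promoter windows (build GRCm38.p6) were found for 35 of 44 members. The KO result of the Schwann cell and glia list is not reported here.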

Additional observations from a re-analysis of the deposited data

Results flagged for a closer look

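In groups of 5 islet libraries, 56 group and gene pairs were tested for a library set apart from the rest, and 3 met the limit, where chance gives about 1 in 20. Col15a1 had 64.0 CPM in control islet 858, against 51.5 to 55.0 CPM in the other 4 controls. Col26a1, a chain of testis and ovary, had 0.886 CPM in KO islet 122, against 0.733 to 0.770 CPM in the other 4 KO islets. Col9a2 had 5.10 CPM in control islet 052, against 6.497 to 7.05 CPM in the other 4 controls.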

How the results depend on the processing

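No paired analysis was possible because the groups share no animal number. At E16.5 the collagens called numbered 2 (1 rose, 1 fell) in the main test, 5 with library totals (4 rose), 9 with DESeq2 (6 rose, 3 fell), 3 with no low-count filter (2 rose), 28 with pan-epithelial scaling (28 rose, 0 fell, where 10553 of all genes rose and 35 fell) and 0 with a minimum fold of 1.5 (0 rose, 0 fell). Leaving out 1 library gave 0 to 7 calls (0 to 6 rose, 0 to 3 fell) by edgeR, 7 without KO 01 and 0 without control 02, 08 or 13, and 1 to 12 by DESeq2. In islets every alternative gave 0, and for tissue 41 or 42, with Col4a4 also called without pancreas KO 01 or KO 19 (lowest adjusted p = 0.0047). The interaction gave 0, but 1 with DESeq2 and 0 to 1 with a library left out (1 without islet KO 803, without pancreas KO 01 and without KO 18, there Col4a1, adjusted p = 0.0481). The causes were not tested. With library totals the median of all genes was 0.0768 at E16.5, and the sign turned for Col16a1 (0.0324), Col18a1 (0.0521), Col6a1 (0.0615), Col6a2 (0.0134), Col6a6 (0.00885) and Col9a2 (0.0329), and in islets for Col3a1 (0.0118). For tissue that median was -0.2455. Pan-epithelial scaling put the median of all E16.5 genes at 0.445 and all 19 members below 0 turned, among them Col11a2 (0.303, adjusted p = 0.0473), Col2a1 (0.185), Col15a1 (0.0597), Col16a1 (0.404), Col18a1 (0.426), Col23a1 (0.359), Col4a1 (0.0312), Col4a2 (0.0520), Col6a1 (0.439), Col6a2 (0.391), Col6a6 (0.390), Col9a1 (0.0432), Col9a2 (0.399) and Col9a3 (0.0017). With a library left out, E16.5 values crossed 0 for Col16a1 (-0.125 to 0.0384), Col18a1 (-0.0874 to 0.0600), Col6a1 (-0.190 to 0.0951), Col6a2 (-0.233 to 0.0311), Col6a6 (-0.225 to 0.0223), Col9a2 (-0.122 to 0.0485), Col1a2 (-0.0722 to 0.200), Col3a1 (-0.0126 to 0.258) and Col4a4 (-0.317 to 0.911), and islet values for Col1a1 (-0.277 to 0.150), Col3a1 (-0.236 to 0.153) and Col11a1 (-0.305 to 0.177). Over the named genes, 922 values kept their direction and side of the threshold, 34 came to pass it, 7 no longer passed it and 44 changed sign. Depth limits islet collagens near the floor and says nothing on those not tested there.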
